A study of Mus musculus with 21 samples.

Results

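The genes described here are 35 members of 2 linked programmes, chosen by symbol from the 49510 genes of the count matrix and followed across all 7 sorted T cell groups of the study. A glycolysis list holds 19 genes for glucose transporters and the enzymes that carry glucose to lactate. A hypoxia list holds 16 genes, among them Hif1a, the oxygen-regulated subunit of hypoxia-inducible factor 1 (HIF-1), and genes that respond to HIF. The rule uses gene symbols only and no measured value, but the members were chosen with earlier results of these data known. Their shares beside those of all genes are read with that limit.

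T cells were taken 7 days after myocardial infarction (MI) from mice aged 8 weeks that carry the Foxp3-GFP transgene, in which green fluorescent protein marks cells that express Foxp3, the transcription factor of regulatory T cells. Regulatory T cells (Tregs) and conventional T cells (Tconvs) were isolated by magnetic and then by flow sorting from the injured heart, the spleen and non-draining lymph nodes (NDLN), and Tregs were also isolated from the heart-draining mediastinal node (MLN). Each of the 7 groups (Heart Treg, Heart Tconv, MLN Treg, NDLN Treg, NDLN Tconv, Spleen Treg and Spleen Tconv) has 3 RNA-seq libraries made with a low-input kit. All 7 groups share the transgene, the age and the infarction, and no group from uninjured mice is analysed here. The labels do not say whether the 3 libraries of a group came from separate animals or pools, so p-values measure the spread between these libraries, which may be technical.

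Glycolysis splits glucose into pyruvate, and lactate dehydrogenase turns pyruvate into lactate while restoring the NAD+ that the pathway consumes. Activated T cells raise this pathway together with glucose transport, whereas resting T cells rely more on mitochondrial oxidation. When oxygen is low, prolyl hydroxylases of the Egln family stop marking HIF-1α for destruction, and the protein then binds short DNA elements and raises many glycolytic genes. HIF-1α is controlled mainly at the level of the protein, which was not measured here.

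Total counts ranged from 14515387 to 28323649 per library. Levels are given as CPM, counts scaled to a common library total. Summed T cell markers stood between 4903 and 11462 CPM in every library, and summed Treg markers between 1401 and 3011 CPM in Treg libraries against 39.8 to 297 CPM in Tconv libraries. One split between libraries touches every heart comparison. In 5 libraries 0.0567 to 0.102% of the counts lay on mitochondrial rRNA, and in the other 16 it was 0.954 to 12.3%. The 5 are Heart Treg 1, Heart Tconv 1 and 2, and MLN Treg 1 and 2. These sets are called the low-rRNA and high-rRNA libraries below. Ribosomal protein genes held 5.01 to 9.90% and 11.5 to 25.3% of the counts in the same order. The labels name no batch, and whether the split comes from preparation or from the cells was not tested. The summed glycolysis list, before scaling factors, was 4097 to 8523 CPM in the low-rRNA and 509 to 4658 CPM in the high-rRNA libraries, so each member called in the heart comparison is also given with the split as a term in the model. In bulk libraries, fewer cells that express a gene and less RNA of it per cell cannot be told apart.

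The short element bound by HIF, the hypoxia response element, has the core ACGTG or GCGTG, and this core was searched on both strands in RefSeq promoter windows (build GRCm38.p6, 250 bases before to 50 bases after each annotated start). A window was found for 32 of the 35 members, not for Slc2a3, Bnip3l or Ndrg1. The core was present in at least 1 window of 29 of the 32 members (90.6%), against 46.7% of the 27025 genes with a window. Per window, 38 of 49 member windows (77.6%) held it, against 43.8% of 32851 windows. Median GC content was 62.3% in member windows and 52.7% in all windows, and its part in this difference was not tested. The sequences below are the 150 bases just upstream of a RefSeq start for 6 members that rose in heart T cells, shown to set a promoter dense in cores beside sparse ones. Capitals mark every match, on either strand. A palindrome CACGTG counts as 2 overlapping matches.
Ldha: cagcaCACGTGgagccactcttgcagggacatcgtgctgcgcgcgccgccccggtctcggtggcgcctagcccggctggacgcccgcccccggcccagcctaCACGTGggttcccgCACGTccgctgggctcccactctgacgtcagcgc
Hif1a: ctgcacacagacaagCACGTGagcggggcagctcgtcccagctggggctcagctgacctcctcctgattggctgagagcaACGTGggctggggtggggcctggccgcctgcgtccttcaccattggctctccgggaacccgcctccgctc
Bnip3: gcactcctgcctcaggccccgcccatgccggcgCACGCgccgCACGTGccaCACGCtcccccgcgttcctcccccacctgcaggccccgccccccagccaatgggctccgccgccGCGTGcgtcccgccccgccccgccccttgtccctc
Hk2: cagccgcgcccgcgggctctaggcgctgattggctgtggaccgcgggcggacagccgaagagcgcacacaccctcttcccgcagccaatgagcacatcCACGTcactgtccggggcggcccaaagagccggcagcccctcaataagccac
Pfkp: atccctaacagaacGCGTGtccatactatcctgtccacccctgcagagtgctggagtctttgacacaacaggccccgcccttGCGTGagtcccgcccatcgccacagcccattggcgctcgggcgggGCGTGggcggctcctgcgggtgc
Tpi1: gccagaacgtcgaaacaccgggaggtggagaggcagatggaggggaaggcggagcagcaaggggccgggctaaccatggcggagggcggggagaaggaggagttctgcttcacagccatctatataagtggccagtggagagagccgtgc

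The Ldha window shown lies at chr7:46845654-46845803 on the plus strand and holds 5 matches, of which 4 come from 2 CACGTG palindromes. The window of another annotated Ldha start (chr7:46846932-46847081) holds 1 match, so the density belongs to the start shown. Hif1a (chr12:73907717-73907866, plus strand) has 3 matches and Bnip3 (chr7:138909507-138909656, minus strand) has 5. Hk2 (chr6:82774455-82774604, minus strand) has a single match, Pfkp (chr13:6648772-6648921, minus strand) has 3, and Tpi1 (chr6:124814159-124814308, minus strand) has none. A match is a description of letters and not evidence of binding. Among members with a window, the core was found in 12 of 14 that rose in heart T cells (85.7%, by the test described next) and in 16 of 17 that were tested and did not pass (94.1%).

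The first comparison set heart T cells (Heart Treg and Heart Tconv, 6 libraries) against T cells of the spleen and non-draining nodes (12 libraries), with both cell types weighted equally. Levels are CPM after TMM scaling, and the test was edgeR's quasi-likelihood test with Benjamini-Hochberg adjustment over the 14996 genes that passed the filter on low counts. Of the 34 members tested, 16 rose in the heart and 0 fell at an adjusted p under 0.05. Of all genes tested, 12.9% passed in either direction, 8.42% higher and 4.45% lower. In the glycolysis list 10 of 19 rose, and in the hypoxia list 6 of 15. DESeq2 called 18 members (all genes, 27%) and limma-voom 18 (all genes, 16.6%). All 16 kept their direction with RLE factors and with library totals alone in place of TMM. The median log2 fold change was 1.88 in the glycolysis list and 0.69 in the hypoxia list, against 0.26 over all genes tested, and 18 of 19 and 9 of 15 members were above 0, against 55.9% of all genes. Eno2 is above 0 only by its fitted value, with compared groups at 0 counts; with those groups at a floor of 3 counts it is -1.004, and 17 of 19 are above 0. With the rRNA split as a term 5 members passed, Aldoa, Eno1, Ldha, Hif1a and Bnip3 (all genes, 3.28%). The 16 high-rRNA libraries alone keep Heart Tconv 3 as the only Heart Tconv library, so no count of members passing is given for them. In that set the log2 fold changes of Aldoa, Eno1, Ldha and Hif1a were 2.07, 2.32, 1.57 and 1.52.

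**Figure D1:**
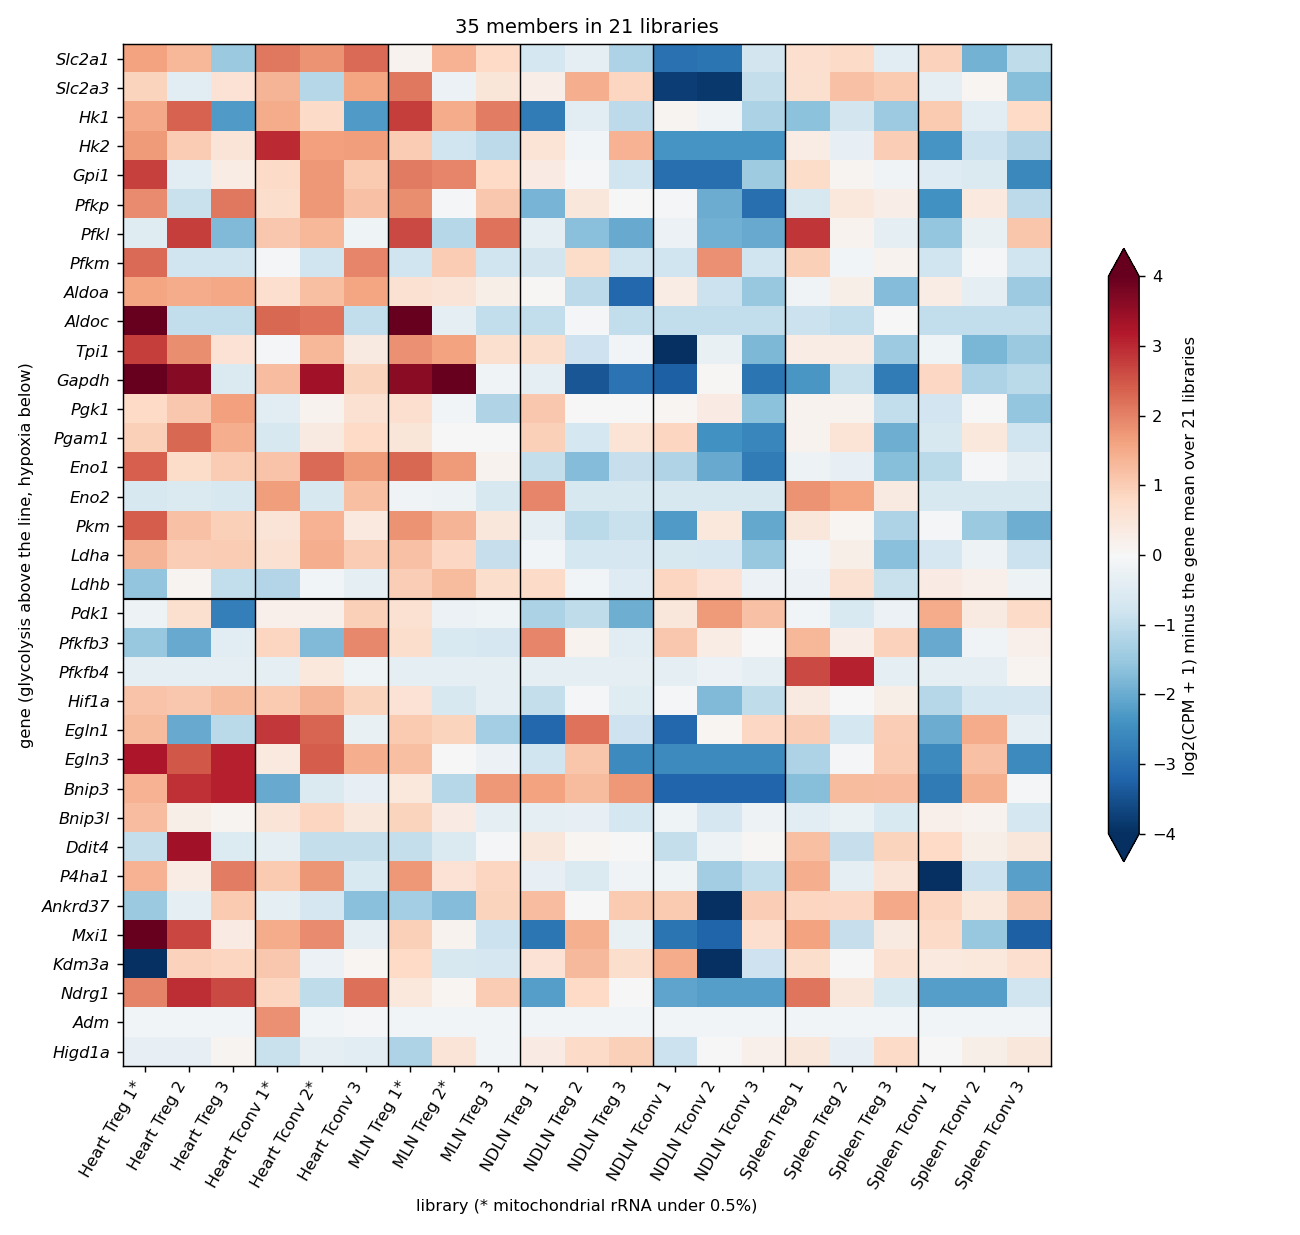
Each cell is the level of 1 of the 35 members (rows, glycolysis above the line and hypoxia below) in 1 of the 21 libraries (columns), as log2(CPM + 1) minus the gene's mean over the 21 libraries; colours saturate beyond 4 on either side. The 6 heart libraries are above the gene mean for Eno1, Ldha, Aldoa, Hif1a and Hk2, while Pdk1, Ldhb and Higd1a do not follow that pattern.

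In 4 members all 6 heart libraries lay above all 12 spleen and NDLN libraries: Eno1, Ldha, Aldoa and Hif1a. Among all genes tested, 1.44% showed such a gap in this direction. Eno1 (ENSMUSG00000063524, chr4:150236721-150248879, plus strand, GRCm38) encodes enolase, which makes phosphoenolpyruvate. It stood at 1466, 463 and 558 CPM in the Heart Treg and at 614, 1331 and 898 CPM in the Heart Tconv libraries. In the 12 spleen and NDLN libraries it ranged from 39.4 to 269 CPM with a median of 137. The log2 fold change was 2.70 (SE 0.32, edgeR adjusted p = 2.8e-05), or 2.09 (adjusted p = 0.000933) with the split as a term.

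Ldha (ENSMUSG00000063229, chr7:46841475-46855627, plus strand) encodes the lactate dehydrogenase subunit that predominates in lactate-producing cells, and it was the most abundant member per kilobase of transcript. Its level was 2441, 1849 and 1890 CPM in Heart Treg libraries and 1448, 2609 and 1915 CPM in Heart Tconv libraries. Spleen and NDLN libraries ranged from 297 to 1112 CPM with a median of 595, so the groups did not overlap. The log2 fold change was 1.66 (SE 0.27, edgeR adjusted p = 0.000508), or 1.31 (adjusted p = 0.0171) with the split as a term. Aldoa (ENSMUSG00000030695, chr7:126795234-126800751, minus strand), the aldolase that splits fructose bisphosphate, stood at 798, 747 and 781 CPM in Heart Treg and 425, 611 and 798 CPM in Heart Tconv libraries. It was 29.6 to 331 CPM in the spleen and NDLN, with a median of 178. Its log2 fold change was 1.88 (SE 0.36, adjusted p = 0.00217), and 1.92 (adjusted p = 0.0178) with the split as a term.

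Hif1a (ENSMUSG00000021109, chr12:73901375-73947530, plus strand) varied least of these 4 among the heart libraries, at 516 ± 60.9 CPM (SD, n = 6). Heart Treg libraries held 512, 498 and 563 CPM and Heart Tconv libraries 488, 606 and 431 CPM. Of the lymphoid groups compared, Spleen Treg had the highest mean, with 300, 230 and 273 CPM, and NDLN Treg libraries held 120, 220 and 166 CPM. Spleen Tconv libraries held 105, 143 and 148 CPM and NDLN Tconv libraries 222, 68.1 and 115 CPM. The lowest heart library was thus above the highest of the 12 others. The log2 fold change was 1.62 (SE 0.22, edgeR adjusted p = 0.000137), and it was 1.49 (adjusted p = 0.00368) with the split as a term. In the high-rRNA libraries alone, with Heart Tconv 3 as the only Heart Tconv library, it was 1.52.

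**Figure D2:**
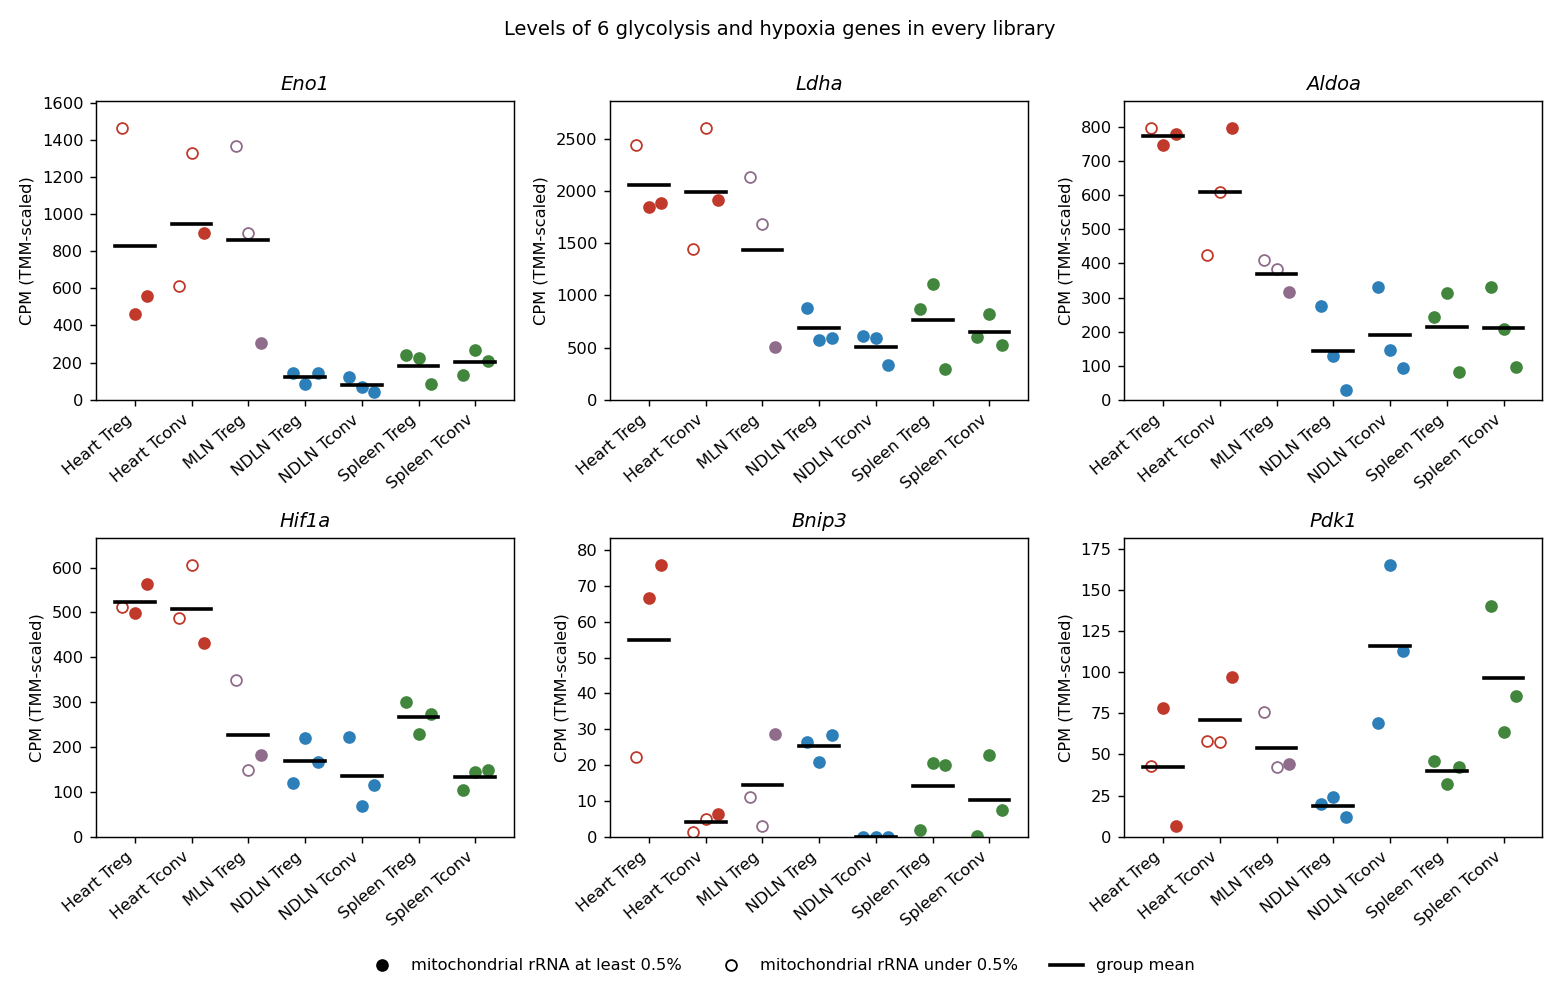
Levels of 6 members in CPM (linear axis from 0, TMM-scaled) in every library of the 7 groups; open points are low-rRNA libraries and black lines are group means. Eno1, Ldha, Aldoa and Hif1a are higher in all 6 heart libraries than in all 12 spleen and NDLN libraries, Bnip3 is at 0 counts in NDLN Tconv, and Pdk1 is lowest in NDLN Treg by group mean.

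The upper part of glycolysis, from glucose entry to fructose bisphosphate, was carried by a few genes. Slc2a1 encodes GLUT1, the glucose transporter induced on T cell activation. It held 23.2, 18.7 and 1.78 CPM in Heart Treg and 32.6, 26.5 and 37.0 CPM in Heart Tconv libraries, against 0 to 13.7 CPM (median 3.78) in the spleen and NDLN. Heart Treg 3 alone fell within the lymphoid range, and the comparison did not pass (log2 fold change 2.42, edgeR adjusted p = 0.089). Slc2a3, which encodes the transporter GLUT3, was 5.49 to 41.9 CPM in the heart and 0 to 38.8 CPM in the spleen and NDLN.

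Hk2 encodes the inducible hexokinase that traps glucose as its phosphate. It was 15.6, 9.35 and 6.32 CPM in Heart Treg libraries and 39.2, 15.03 and 15.2 CPM in Heart Tconv libraries. Spleen and NDLN libraries ranged from 0 to 12.4 CPM with a median of 2.43, and all 3 NDLN Tconv libraries were at 0 counts, so no fitted fold is given. The means were 16.8 and 3.59 CPM (edgeR adjusted p = 0.008, or 0.057 with the split as a term). Hk1, the constitutive isoenzyme, did not pass, at 0.436 to 34.6 CPM in the heart and 0 to 13.5 CPM in the spleen and NDLN.

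Gpi1 encodes glucose phosphate isomerase. It held 390, 41.6 and 71.7 CPM in Heart Treg and 97.8, 195 and 120 CPM in Heart Tconv libraries, against 6.26 to 97.6 CPM (median 39.3) in the 12 others. Heart Treg 1, a low-rRNA library, was far above its 2 partners, and the log2 fold change of 2.20 (SE 0.42, edgeR adjusted p = 0.00246) became 1.29 (adjusted p = 0.122) with the split as a term. Pfkp encodes the platelet form of phosphofructokinase, the main controlled step. It held 143, 19.6 and 164 CPM in Heart Treg and 61.4, 128 and 84.9 CPM in Heart Tconv libraries, against 3.71 to 52.0 CPM, median 29.7 (log2 fold change 1.90, SE 0.53, edgeR adjusted p = 0.0225). That call was lost without Heart Treg 1, Heart Treg 3 or Heart Tconv 2, with an adjusted p of at most 0.0635, and with the split as a term (log2 fold change 1.74, adjusted p = 0.15). Reads of Pfkp are also uncertain because its transcript shares 748 identical bases with Pitrm1, a gene with 7733 counts against 28077 on Pfkp. The other phosphofructokinase genes, Pfkl and Pfkm, were at most 28.9 and 7.3 CPM in these 18 libraries and did not pass.

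In the lower part, from triose phosphate to pyruvate, Tpi1 and Pkm rose while Pgk1 and Pgam1 did not pass. Tpi1, triose phosphate isomerase, was 533, 284 and 117 CPM in Heart Treg and 72.5, 193 and 99.0 CPM in Heart Tconv libraries, against 3.04 to 126 CPM, median 52.8 (log2 fold change 1.94, SE 0.46, edgeR adjusted p = 0.00914). Pkm, pyruvate kinase, was 547, 229 and 198 CPM in Heart Treg and 144, 268 and 135 CPM in Heart Tconv libraries, against 20.4 to 139 CPM, median 50.5 (log2 fold change 1.90, SE 0.39, adjusted p = 0.00395). With the rRNA split as a term the adjusted p was 0.166 for Tpi1 and 0.112 for Pkm, both still higher in the heart. Pgk1, phosphoglycerate kinase, was 102 to 437 CPM in the heart and 44.9 to 297 CPM in the others (adjusted p = 0.0973). Pgam1, phosphoglycerate mutase, was 41.4 to 323 CPM against 9.84 to 125 CPM (adjusted p = 0.134).

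Aldoc, another aldolase gene, had counts in the low-rRNA heart libraries and none in the high-rRNA ones. It held 44.9 CPM in Heart Treg 1 and 8.90 and 8.03 CPM in Heart Tconv 1 and 2, and it was at 0 counts in the other 3 heart libraries. MLN Treg 1, also a low-rRNA library, held the highest level at 76.6 CPM. Spleen and NDLN libraries did not exceed 0.959 CPM. The edgeR adjusted p was 0.0278. Spleen Tconv and NDLN Tconv were at 0 counts, so the fitted fold is not a bound and its sign is not read as a direction. With the split as a term the call was lost (fitted log2 fold change -3.56). Leaving out Heart Treg 1, Heart Tconv 1, NDLN Treg 1 or 3, Spleen Treg 1 or 2, or Spleen Tconv 1 or 3 also ended the call, with a log2 fold change of 2.04 to 9.20 over all 21 such fits. Eno2, the neuronal enolase, stayed at or below 5.04 CPM in these 18 libraries and did not pass.

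Gapdh, glyceraldehyde phosphate dehydrogenase, passed the test, but its counts are uncertain. The annotation holds 73 pseudogene copies with at least 95% identity to its transcript over at least 300 bases, and 72 of them carried counts. Over the 21 libraries 20255 counts lay on Gapdh itself and 52024 (72%) on the pseudogene copies. Another 3 genes of other biotypes match as closely (Gm3839, Gm10358 and Vmn2r60) and held 244, 30 and 0 counts. Gapdh itself was 216, 134 and 6.17 CPM in Heart Treg and 24.7, 110 and 19.04 CPM in Heart Tconv libraries, against 0 to 18.1 CPM (median 2.38) in the spleen and NDLN (log2 fold change 4.42, SE 0.98, edgeR adjusted p = 0.00644), and with the split as a term the log2 fold change was 3.04 (adjusted p = 0.112). Gene and pseudogene copies summed gave 124 to 423 CPM in the heart and 20.97 to 97.0 CPM in the spleen and NDLN, with no overlap. The 3 MLN Treg libraries held 203 to 338 CPM by that sum. Among the other members, pseudogene copies held at most 2.31% of the counts. Close matches of other biotypes added 8420 counts on Eno1b (3.62% of Eno1 and Eno1b together) and 14488 on Bnip3l-ps (11.9% of Bnip3l and Bnip3l-ps together). Eno1 summed with all 3 of its copies was 481 to 1546 CPM in the heart and 41.2 to 282 CPM in the spleen and NDLN, still with no overlap. Bnip3l summed with its copy was 259 to 575 CPM and 143 to 277 CPM, which overlap.

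**Figure D3:**
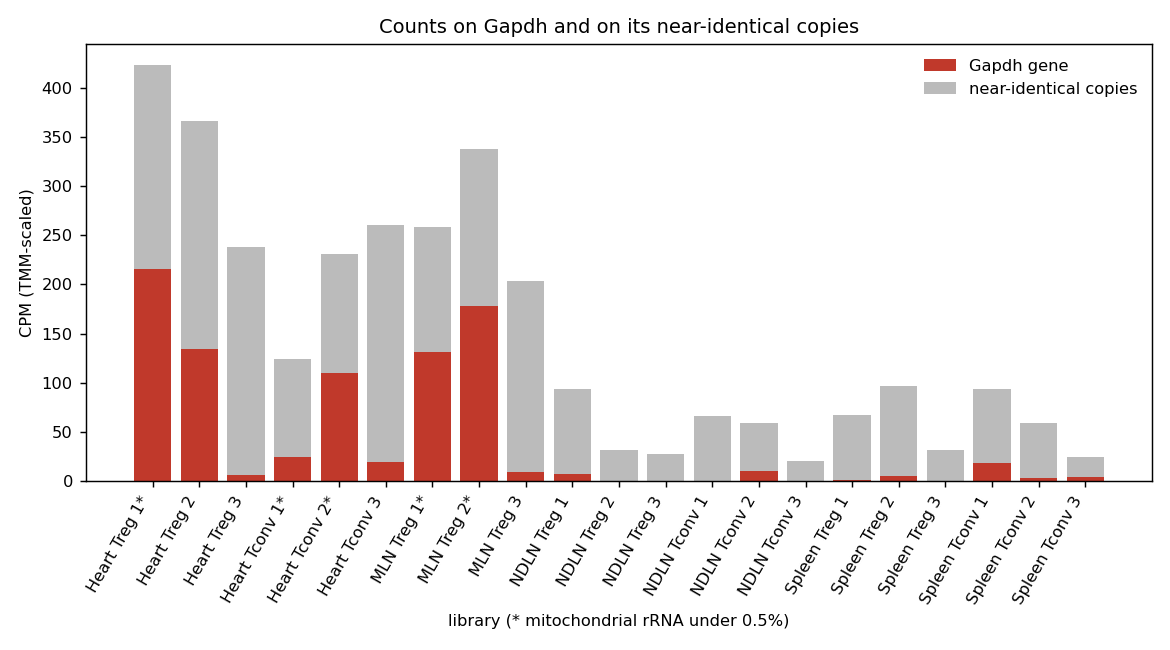
Bars give CPM (TMM-scaled, axis from 0) on the Gapdh gene (red) and on its 73 near-identical pseudogene copies (grey) in each of the 21 libraries; an asterisk marks a low-rRNA library. The share on the copies runs from 47.2 to 100%, and the summed bars are 124 CPM or more in the heart and MLN and 97.0 CPM or less in the spleen and NDLN.

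Lactate dehydrogenase is a tetramer of Ldha and Ldhb products, and the Ldhb form is known for favouring pyruvate. Ldhb was, unlike Ldha, not higher in the heart, at 15.04 to 50.4 CPM in the heart and 25.01 to 87.1 CPM in the spleen and NDLN (log2 fold change -0.76, edgeR adjusted p = 0.189, not passed). The ratio of the pair within a library does not depend on the scaling between libraries. Heart Treg libraries held 162, 36.7 and 80.7 Ldha counts per Ldhb count, and Heart Tconv libraries held 71.2, 59.8 and 53.3. The 12 spleen and NDLN libraries held 6.99 to 22.1, and the 3 MLN Treg libraries 22.8, 14.5 and 6.51. On the log2 scale, with 0.5 added to each count, the mean was 6.11 ± 0.72 (SD, n = 6) in the heart and 3.60 ± 0.49 (SD, n = 12) in the spleen and NDLN. That difference of 2.51 had an exact two-sided permutation p of 0.000108, the smallest that 6 against 12 libraries can give, and an adjusted p of 0.000646 over 6 isoenzyme pairs. Among the high-rRNA libraries alone the difference was 2.16 (exact permutation test, adjusted p = 0.0132). MLN Treg 1 and 2 have the low-rRNA profile and lay below every heart library. None of the other 5 pairs (Slc2a1 with Slc2a3, Hk1 with Hk2, Pfkl with Pfkp, Aldoa with Aldoc, Eno1 with Eno2) passed the same exact permutation test, with adjusted p from 0.302 to 0.994.

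**Figure D4:**
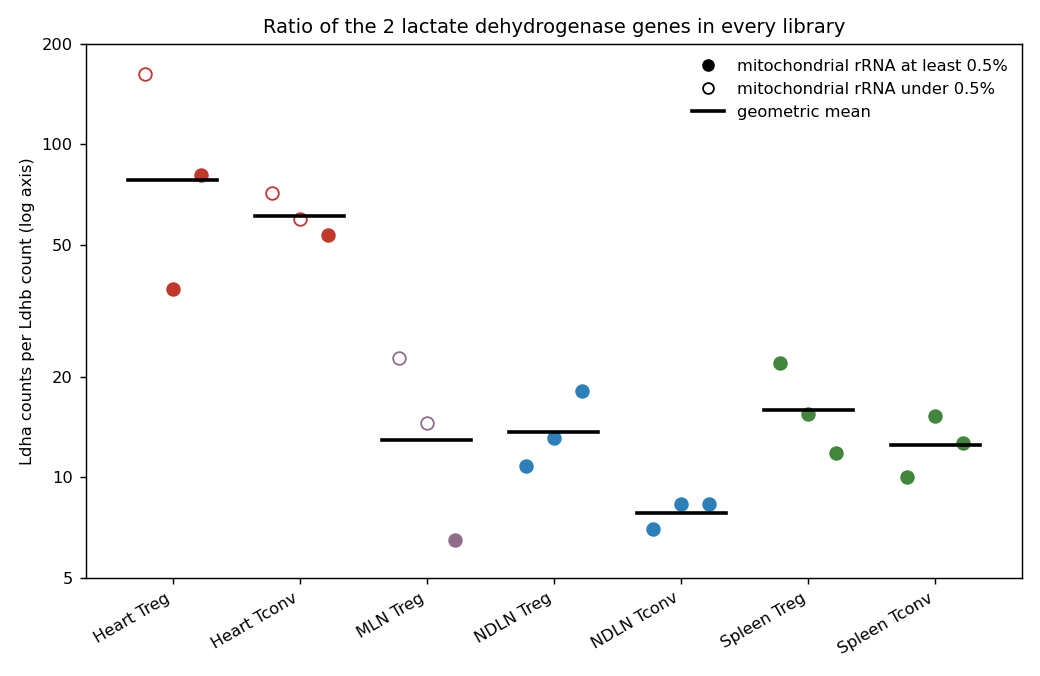
Ldha counts per Ldhb count in each library (log axis) by group; open points are low-rRNA libraries and black lines are geometric means. All 6 heart libraries lie at 36.7 or above, and all 15 spleen, NDLN and MLN libraries lie at 22.8 or below.

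Among the hypoxia genes, those that rose beside Hif1a were Egln3, Bnip3, Bnip3l, P4ha1 and Ndrg1. Egln3 encodes a prolyl hydroxylase that marks HIF-1α and is itself induced by HIF. It held 53.9, 31.8 and 48.6 CPM in Heart Treg and 6.57, 30.3 and 14.8 CPM in Heart Tconv libraries. The 12 others ranged from 0 to 12.2 CPM with a median of 0.728, and only Heart Tconv 1 fell within that range (edgeR adjusted p = 0.0186, or 0.0847 with the split as a term). NDLN Tconv was at 0 counts, so the means of 31.0 and 3.58 CPM are given in place of a fitted fold. Egln1, the main oxygen-sensing hydroxylase, did not pass, at 1.18 to 61.7 CPM in the heart and 0 to 38.4 CPM in the spleen and NDLN.

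Bnip3 (chr7:138890836-138909519, minus strand) and Bnip3l (chr14:66985239-67008877, minus strand) encode mitochondrial outer membrane proteins that mark mitochondria for removal. Bnip3l was 495, 244 and 225 CPM in Heart Treg and 297, 379 and 287 CPM in Heart Tconv libraries, against 127 to 242 CPM (median 164) in the others (log2 fold change 0.95, SE 0.22, edgeR adjusted p = 0.00758). With the split as a term the log2 fold change was 0.53 (adjusted p = 0.194). Bnip3 was higher in Heart Treg (22.3, 66.7 and 75.8 CPM) than in Heart Tconv libraries (1.21, 4.96 and 6.19 CPM) by level. NDLN Treg libraries held 26.5, 20.7 and 28.4 CPM and NDLN Tconv libraries were at 0 counts. Spleen Treg libraries held 1.73, 20.6 and 20.1 CPM and Spleen Tconv libraries 0.259, 22.9 and 7.54 CPM. The Heart Tconv values lay inside the lymphoid range and 2 of the 3 Heart Treg values above it. Bnip3 medians were close, at 14.3 CPM in the heart and 13.8 CPM in the spleen and NDLN. Heart Tconv averaged 4.12 CPM, below the 10.2 CPM of Spleen Tconv. Because NDLN Tconv was at 0 counts, no fitted fold is given for Bnip3, and the call depends on that empty group. The adjusted p of 0.0314 rose to as much as 0.0609 when 1 of 6 libraries (Heart Treg 2 or 3, Heart Tconv 2 or 3, NDLN Treg 2, Spleen Tconv 3) was left out, and it was 0.0461 with the split as a term.

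P4ha1 encodes a subunit of the enzyme that hydroxylates collagen proline. It held 112, 51.8 and 175 CPM in Heart Treg and 86.7, 144 and 27.2 CPM in Heart Tconv libraries, against 1.56 to 116 CPM, median 29.5 (log2 fold change 1.82, SE 0.45, edgeR adjusted p = 0.013). Without Heart Tconv 2 the adjusted p was 0.056, and with the split as a term it was 0.214 (log2 fold change 1.38). Ndrg1, a stress-responsive gene of the N-myc downstream regulated family, was 17.2, 34.4 and 27.9 CPM in Heart Treg and 7.42, 1.27 and 20.2 CPM in Heart Tconv libraries. Its spleen and NDLN values ran from 0 to 19.2 CPM with a median of 0.864 (means 18.1 and 3.24 CPM, edgeR adjusted p = 0.027). That call was lost without Heart Tconv 3, Spleen Treg 2 or Spleen Treg 3, with an adjusted p of at most 0.0676, and with the split as a term (adjusted p = 0.058). Mxi1, a MYC antagonist, was 8.84 to 205 CPM in the heart and 0.345 to 38.6 CPM in the others and did not pass (adjusted p = 0.0868).

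Several well-known hypoxia targets did not pass in the heart. Pdk1 encodes a kinase that inhibits pyruvate dehydrogenase. It was 42.8, 78.1 and 6.63 CPM in Heart Treg and 58.1, 57.5 and 97.4 CPM in Heart Tconv libraries (log2 fold change 0.03). All but Heart Treg 3 lay inside the 12.2 to 165 CPM of the spleen and NDLN. Higd1a, a mitochondrial protein of the inner membrane, had a log2 fold change of -0.65 (edgeR adjusted p = 0.087), at 123 to 245 CPM in the heart and 126 to 446 CPM in the others. Ankrd37 (log2 fold change -1.24) was 4.66 to 35.7 CPM against 0 to 49.8 CPM. Kdm3a, a histone demethylase, was 0.396 to 51.6 CPM against 0.417 to 68.7 CPM. Pfkfb3, which makes the activator of phosphofructokinase, was at most 14.5 CPM in the heart and 14.7 CPM in the others, and Ddit4, an inhibitor of mTORC1, was at most 18.9 and 3.51 CPM. Pfkfb4 had 10.1 CPM or less, nearly all of it in Spleen Treg 1 and 2, and gave no usable standard error. Adm, the gene of the peptide adrenomedullin, failed the filter on low counts, with 64 counts in all, each of them in a Heart Tconv library.

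**Figure D5:**
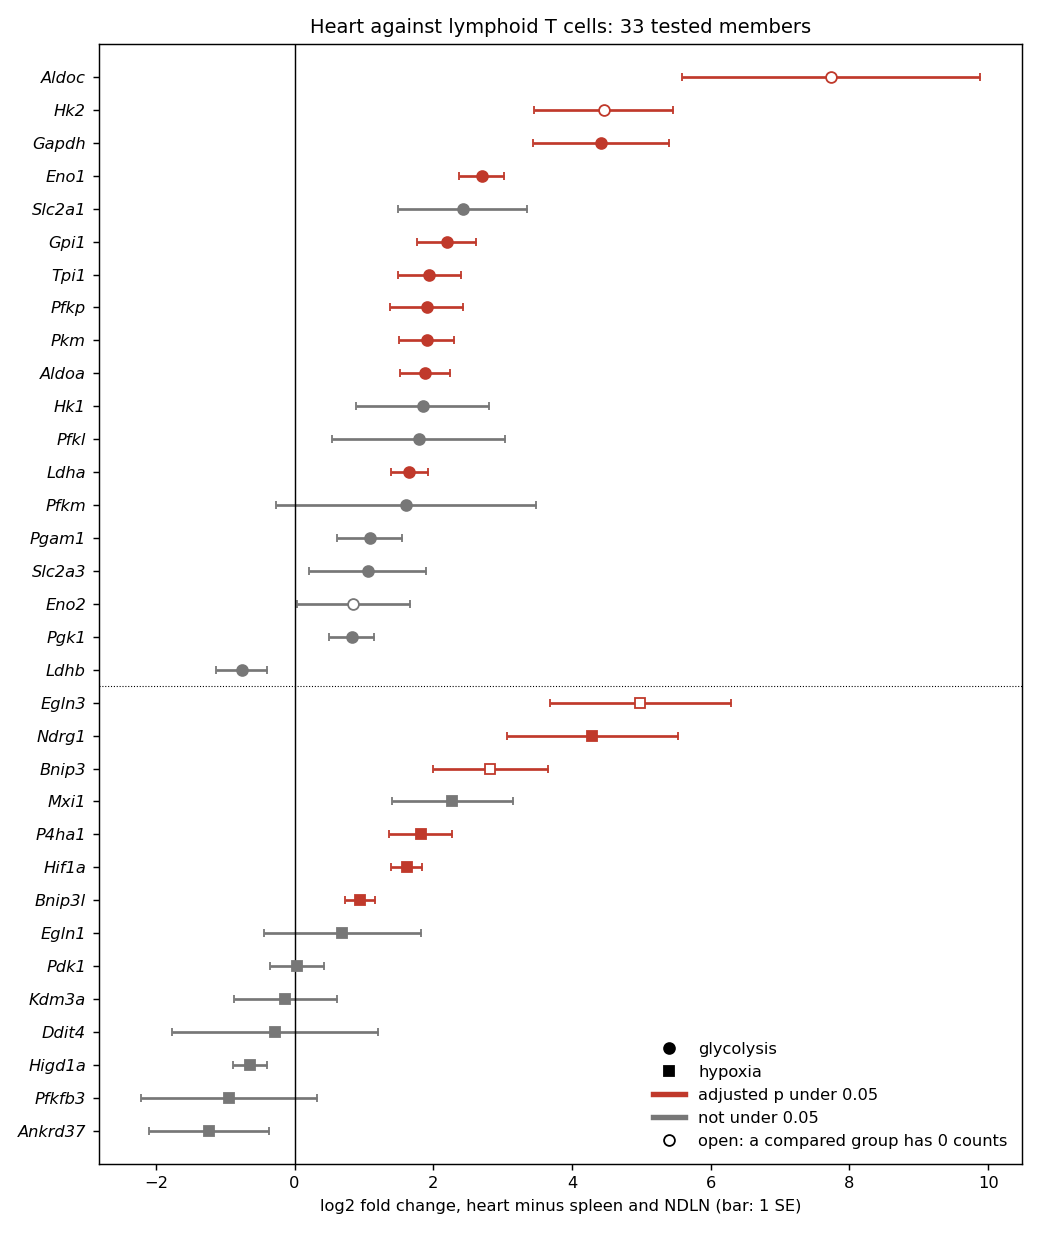
Log2 fold change of heart against spleen and NDLN T cells for 33 tested members (Pfkfb4 is left out), with 1 SE on either side, from edgeR over all 21 libraries; red marks an adjusted p under 0.05. Open symbols are the 5 members with a compared group at 0 counts, whose fitted fold is not a bound. Ldhb is the single glycolysis member below 0 by fitted value (Eno2, an open symbol, is below 0 with its empty groups at the floor), whereas 5 of the hypoxia members shown are below 0.

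Other cell types were measured beside these values. Of the 7 fibroblast markers 6 were tested, and all 6 rose in the heart. Their summed level was 102 to 401 CPM in Heart Treg, 1.44 to 182 CPM in Heart Tconv and at most 5.18 CPM in the other groups, with Pdgfra at 0 counts in 17 of the 21 libraries. Summed CD8 and NK cell markers were 1283 to 1935 CPM in Heart Tconv, 84.1 to 1390 CPM in Heart Treg and 61.1 to 2078 CPM in the spleen and NDLN libraries. In the heart most of this sum was Nkg7, with means of 1361 CPM in Heart Tconv and 687 CPM in Heart Treg. Cd8a averaged 2.94 and 0 CPM in the same groups. Of the 5 tested markers of this list 1 had a log2 fold change above 0 in the heart comparison (median -0.59). Macrophage and monocyte markers summed to at most 179 CPM in the heart and cardiomyocyte markers to at most 19.8 CPM. Some marker sums were higher on the lymphoid side. Erythroid markers summed to 30079 CPM in MLN Treg 3, 23818 CPM in Spleen Treg 1 and 10439 CPM in Spleen Treg 3, and to at most 30.6 CPM in the heart. B cell markers summed to 241 to 495 CPM in Spleen Treg, 246 to 284 CPM in NDLN Treg and at most 50.5 CPM in the heart. Heart Tconv 1 had fibroblast markers at 1.44 CPM, against 102 to 401 CPM in the other heart libraries. It held Eno1 at 614, Ldha at 1448, Aldoa at 425 and Hif1a at 488 CPM, each above all 12 spleen and NDLN libraries. That library also had the highest macrophage and monocyte (179 CPM) and dendritic cell marker sums (299 CPM) of the 6 heart libraries, whose part in its values was not tested. The part of fibroblasts and of the other cell types in the heart results was not tested for any library.

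Set separately, the pairwise comparisons had 3 libraries a side and called fewer members. Those that involve the same group share its libraries and are not independent of each other or of the comparison above. In Heart Tconv against NDLN Tconv 6 members rose (all genes, 2.88% in either direction): Hk2, Gpi1, Eno1, Ldha, Hif1a and Bnip3. DESeq2 called 14 there (all genes, 19.9%) and limma-voom 7 (all genes, 6.84%). NDLN Tconv was at 0 counts for Hk2 and Bnip3, and against a floor of 3 counts over that group Hk2 was at least 406-fold and Bnip3 at least 72.3-fold higher in Heart Tconv (edgeR adjusted p = 0.0184 and 0.0194). Gpi1 was 12.4-fold, Eno1 12.5-fold, Ldha 3.92-fold and Hif1a 3.77-fold higher (edgeR adjusted p = 0.018, 0.00433, 0.0245 and 0.0123). Without Heart Tconv 2 Eno1 alone was called, and without NDLN Tconv 2 the calls were Eno1, Hif1a and Pkm. Further calls were lost for Hk2 without Heart Tconv 1, for Gpi1 without NDLN Tconv 1, and for Ldha and Bnip3 without NDLN Tconv 3. Eno1 alone kept its call in every such fit. In Heart Tconv against Spleen Tconv Hif1a alone rose, by 1.95 on the log2 scale (SE 0.39, adjusted p = 0.0293; all genes, 0.473%), and 5 of the 6 libraries ended that call when left out, all but Heart Tconv 3. DESeq2 called 7 members in that comparison (all genes, 10.4%) and limma-voom 2 (all genes, 1.48%).

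In Heart Treg against NDLN Treg Eno1 rose by 2.75 on the log2 scale (SE 0.58, edgeR adjusted p = 0.0337; all genes, 0.533%), a call that ended without Heart Treg 1 or any 1 NDLN Treg library. Without MLN Treg 1, NDLN Tconv 1 or NDLN Tconv 2, which belong to neither group but share the fit, Hif1a passed too. There DESeq2 called 7 members (all genes, 13.3%) and limma-voom 2 (all genes, 2.72%). Heart Treg against Spleen Treg gave 0 members by edgeR (all genes, 0.147%), with 11 at an unadjusted p under 0.05 (all genes, 11.7%). DESeq2 called 5 there, Aldoa, Gapdh, Eno1, Ldha and Bnip3l (all genes, 9.56%), and limma-voom 2, Aldoa and Hif1a (all genes, 1.89%). Whether the heart effect differs between Tregs and Tconvs was tested directly as an interaction. No member passed by edgeR (all genes, 0.00667%), with 2 at an unadjusted p under 0.05 (all genes, 8.31%). DESeq2 called 3, Hk2, Eno2 and Egln3 (all genes, 7.98%), and limma-voom 1, Hk2 (all genes, 0.553%). For Eno1 that difference in log2 fold change was -0.47 (SE 0.67) and for Hif1a -0.63 (SE 0.47).

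In Tregs of the mediastinal node, the 2 low-rRNA libraries held more Eno1 and Ldha than the high-rRNA library. Eno1 was 1371 and 900 CPM in the low-rRNA libraries MLN Treg 1 and 2 and 306 CPM in MLN Treg 3, and Ldha was 2135, 1682 and 501 CPM in the same order. In both genes the high-rRNA MLN library was below all heart libraries and the low-rRNA pair was inside the heart range. MLN Treg 3 also had erythroid markers at 30079 CPM, against 342 and 477 CPM in MLN Treg 1 and 2. The part of erythroid RNA in these levels was not tested. Hif1a was 350, 148 and 183 CPM in MLN Treg, below all 6 heart libraries in both sets. Heart Treg against MLN Treg gave 0 members by edgeR (all genes, 0.0667%), with 3 at an unadjusted p under 0.05 (all genes, 9.58%). DESeq2 called Ldhb (all genes, 7.86%) and limma-voom Hif1a (all genes, 1.41%). The log2 fold change there was 1.21 for Hif1a (SE 0.39, edgeR adjusted p = 0.449) and -1.69 for Ldhb (SE 0.60, adjusted p = 0.496). MLN Treg against NDLN Treg also gave 0 (all genes, 0.00667%), with 10 at an unadjusted p under 0.05 (all genes, 9.66%). DESeq2 called 4, Hk1, Gapdh, Eno1 and Pkm (all genes, 6.65%), and limma-voom 0 (all genes, 0.273%).

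Tregs and Tconvs were compared over heart, spleen and NDLN, 9 libraries a side. Of the 34 members Bnip3 was higher and Pdk1 lower in Tregs by edgeR (all genes, 1.81% in either direction). DESeq2 called 7 (all genes, 13.4%) and limma-voom 4 (all genes, 3.34%). Bnip3 averaged 31.5 CPM in Treg and 4.79 CPM in Tconv libraries (edgeR adjusted p = 0.006). In NDLN Treg against NDLN Tconv it was also the single member that passed (all genes, 0.3%), at least 442-fold higher against the floor of 3 counts (edgeR adjusted p = 0.0238). That call was lost without NDLN Tconv 1 or NDLN Tconv 2. DESeq2 called 8 members in that comparison (all genes, 11.8%) and limma-voom 3 (all genes, 1.61%).

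Pdk1 averaged 33.9 CPM in Treg and 94.6 CPM in Tconv libraries. NDLN Treg libraries held 20.1, 24.1 and 12.2 CPM and NDLN Tconv libraries 69.1, 165 and 113 CPM. Spleen Treg libraries held 46.1, 32.0 and 42.2 CPM and Spleen Tconv libraries 141, 63.7 and 85.7 CPM. Treg and Tconv values did not overlap at either lymphoid site, while they did in the heart. The log2 fold change was -1.54 (SE 0.38, edgeR adjusted p = 0.0383), and leaving out 1 library ended the call in 14 of 21 cases, with adjusted p from 0.0157 to 0.085. Those 14 were every library of the comparison except Heart Treg 2, Heart Treg 3, NDLN Tconv 1 and Spleen Tconv 2. Without NDLN Tconv 1 Pgam1 passed as well, and without Spleen Tconv 2 Egln3 did, which made 3 members each.

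Next by p among the members were Hk2, Gpi1, Tpi1 and Pgk1 in the glycolysis list and Ndrg1 and Egln3 in the hypoxia list, none of which passed by edgeR (adjusted p from 0.0698 to 0.277). Pgk1 was 247, 298 and 437 CPM in Heart Treg and 102, 156 and 215 CPM in Heart Tconv libraries. It was 297, 139 and 141 CPM in NDLN Treg, 148, 175 and 44.9 CPM in NDLN Tconv, 156, 156 and 70.9 CPM in Spleen Treg and 82.5, 140 and 47.9 CPM in Spleen Tconv libraries. Within the heart, Treg against Tconv gave 0 members by edgeR (all genes, 0.0667%), with 1 at an unadjusted p under 0.05 (all genes, 7.81%). DESeq2 called Bnip3 (all genes, 6.94%) and limma-voom 0 (all genes, 1.19%). Spleen Treg against Spleen Tconv gave 0 as well (all genes, 0.06%), with 3 at an unadjusted p under 0.05 (all genes, 7.33%). DESeq2 called 2, Eno2 and P4ha1 (all genes, 6.35%), and limma-voom 0 (all genes, 0.874%).

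Summed by list, the 19 glycolysis genes gave 4453 to 7060 CPM in Heart Treg and 3199 to 5801 CPM in Heart Tconv libraries. The sums were 1852 to 5697 CPM in MLN Treg, 1260 to 2126 CPM in NDLN Treg, 791 to 2345 CPM in Spleen Treg, 1062 to 1753 CPM in Spleen Tconv and 638 to 1487 CPM in NDLN Tconv. Ldha, Aldoa and Eno1 were the 3 highest members per kilobase of exon over the 21 libraries, at means of 349, 123 and 85.6 CPM per kilobase, so they weigh most in these sums. The 16 hypoxia genes summed to 1115 to 1668 CPM in the heart and 620 to 1093 CPM in the spleen and NDLN, and to 771 to 1178 CPM in MLN Treg, which overlaps the heart range. Hif1a averaged 516 CPM in the heart and 176 CPM in the spleen and NDLN, and Bnip3l 321 and 168 CPM, the 2 widest upward gaps. Higd1a went the other way, at 180 and 286 CPM. By log2 fold change 9 of the 15 tested hypoxia genes were above 0, so the sum does not describe the list as a whole.

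The neighbouring lists are given beside the 12.9% of all genes that passed in the heart comparison and the median of 0.26 over all genes, and no difference between lists was tested. None of the 8 pentose phosphate genes passed (median log2 fold change 0.49), nor did any of the 5 tested genes for other glycolytic isoenzymes (0.31) or the 3 tested brakes on glucose uptake (0.10). Among 12 tricarboxylic acid cycle enzymes (median 0.66) 2 rose, a share near that of all genes: Cs by 1.17 and Idh3g by 0.65 on the log2 scale (edgeR adjusted p = 0.0448 and 0.0337). Among 11 tested genes of pyruvate dehydrogenase and pyruvate entry (median 1.02) 1 rose, a share below that of all genes: the pyruvate dehydrogenase phosphatase Pdp2, from 3.93 to 11.7 CPM (adjusted p = 0.0431). Among 12 HIF regulators and partners (median 0.30), Epas1, the gene of HIF-2α, rose from 1.77 to 5.998 CPM, while Rbx1 and Elob, parts of the ubiquitin ligase that removes HIF-α, fell by 1.36 and 0.68 on the log2 scale (adjusted p = 0.015, 0.000272 and 0.0327). Of 12 other HIF-responsive genes tested (median 1.07, above the 0.69 of the hypoxia list), 3 rose and 1 fell. Bhlhe40, a transcription factor also induced by T cell activation, went from 19.95 to 748 CPM, Bhlhe41 from 2.43 to 34.0 CPM and Pgm2 from 10.3 to 26.7 CPM, and Fam162a fell by 1.44 on the log2 scale (edgeR adjusted p = 0.000482, 0.0088, 0.00879 and 0.000905). With the rRNA split as a term Bhlhe40, Fam162a and Rbx1 passed (adjusted p = 0.00349, 0.0184 and 0.00623), and the other 7 genes called in these lists did not (adjusted p from 0.0635 to 0.405).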

How the data were processed

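The deposited file is 1 matrix of raw counts per gene for all 21 libraries. Per the submitters' processing notes, the authors used CASAVA 1.8.2, HISAT2, HTSeq 0.6.0 and the mm10 build, and the values were deposited as whole-number counts with no normalization; no source used here gives the strand setting or the treatment of multi-mapped reads. All 35 members matched by symbol and gene ID (GENCODE M21 names). The members and gene lists were chosen with earlier results of these data known. Member values are given per library for each member that passed any comparison, for the 4 smallest p-values per list in the heart and in the Treg comparison, and for Slc2a1, Hk2, Gapdh, Ldha, Hif1a, Pdk1 and Bnip3. Genes passing filterByExpr (14996) were fitted with edgeR 4.0.16 (TMM, 1 coefficient per group, quasi-likelihood test, R 4.3.3), adjusted over all of them; common dispersion was 2.19. DESeq2 1.42.0, limma-voom (limma 3.58.1), other scalings, no filter, a replicate block, the rRNA split (at 0.5%) and leaving out each library were alternatives. CPM uses TMM-scaled totals; marker sums use plain totals. Isoenzyme ratios used exact permutation tests in scipy 1.17.1, and gene copies were found with BLAST 2.17.0. The scripts were tested on simulated data. No column was left out.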

Additional observations from a re-analysis of the deposited data

How the results depend on the processing

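The biological coefficient of variation, a measure of the spread between libraries, was 1.48. The rRNA split covers 3 of 6 heart libraries and 0 of 12 spleen and NDLN libraries. Why a member did or did not pass in the heart comparison was not tested. Without the library-to-library factors (totals only) 19 members passed in the heart comparison (14.5% of all genes), and the median of all genes moved from 0.26 to 0.52 (0.34 with RLE factors). Of the 16 members called there, 15 kept their direction with the split as a term and in the high-rRNA libraries alone. The exception was Aldoc (fitted log2 fold change -3.56 and -2.94), whose sign is not informative because compared groups were at 0 counts. The cause of the changes below was not tested, except that fewer samples enter where libraries are left out.

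With the rRNA split as a term, the members called numbered 5 in heart against spleen and NDLN (all genes, 3.28%), 2 in Heart Tconv against NDLN Tconv (0.533%), and 0 in Heart Treg against NDLN Treg and in Heart Tconv against Spleen Tconv. The 16 high-rRNA libraries keep Heart Tconv 3 as the only Heart Tconv library, and Heart Treg 2 and 3. For that set no count of members called is therefore given in comparisons that include Heart Tconv. It gave 0 in Heart Treg against NDLN Treg and in NDLN Treg against NDLN Tconv.

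The share of all genes is given in brackets. DESeq2 called 7 in Treg against Tconv (13.4%) and 3 in the interaction (7.98%). For Heart Treg it called 5 against Spleen Treg (9.56%), 7 against NDLN Treg (13.3%), 1 against MLN Treg (7.86%) and 1 against Heart Tconv (6.94%). Heart Tconv gave 7 against Spleen Tconv (10.4%) and 14 against NDLN Tconv (19.9%). Spleen Treg and NDLN Treg gave 2 (6.35%) and 8 (11.8%) against their Tconvs. MLN Treg gave 4 against NDLN Treg (6.65%). In the same order limma-voom gave 4, 1, 2, 2 and 1 (3.34, 0.553, 1.89, 2.72 and 1.41%). It then gave 2 in Heart Tconv against Spleen Tconv (1.48%) and 3 in NDLN Treg against NDLN Tconv (1.61%). Without the filter on low counts, 4, 5, 3, 2 and 2 members were called in Heart Treg against Spleen Treg, Heart Treg against NDLN Treg, Heart Tconv against Spleen Tconv, NDLN Treg against NDLN Tconv and MLN Treg against NDLN Treg (all genes, 0.712, 1.32, 1.33, 1.28 and 0.728%).

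Leaving out 1 library at a time gave 13 to 19 members in heart against spleen and NDLN (19 without NDLN Tconv 3, 13 without Heart Tconv 2; all genes, 12.3 and 8.26%), 1 to 3 in Treg against Tconv, 1 to 7 in Heart Tconv against NDLN Tconv, 0 to 2 in Heart Treg against NDLN Treg, in Heart Tconv against Spleen Tconv and in NDLN Treg against NDLN Tconv, and 0 to 0 in the other 6. The Ldha to Ldhb difference ran from 2.27 to 2.70 in these fits and was 2.16 in the high-rRNA libraries. The Pfkl to Pfkp difference, 0.00465 with all libraries, ran from -0.99 to 1.02 (leave-one-out), was -0.18 with 1 added to each count and -0.19 in the high-rRNA libraries. The Aldoa to Aldoc difference was -1.30 with all libraries and 3.65 in the high-rRNA libraries (exact permutation test, adjusted p = 0.0132). Aldoc was at 0 counts in all 3 high-rRNA heart libraries and in 9 of the 12 spleen and NDLN libraries. In that set the ratio is therefore mostly the Aldoa count over the 0.5 added, and it says little about Aldoc.

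Deviations of same-numbered libraries had correlations of -0.0614 to 0.184, with 3 of 63 pairs over 0.1, so the numbers were not taken to pair the samples. For 15 of 21 libraries the closest library of another group had the same number, a hint from the data and not from the design. With the replicate number as a block, 15 members were called in heart against spleen and NDLN (9.95% of all genes), 2 in Heart Treg against NDLN Treg and 3 in Heart Tconv against Spleen Tconv.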
